A study of Mus musculus with 20 samples.

Results

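The 10 genes described here encode members of the BCL2 family that are named most often in work on apoptosis and senolytic drugs. They comprise the survival genes Bcl2, Bcl2l1 (BCL-XL), Bcl2l2 (BCL-W) and Mcl1, the pore-forming genes Bax and Bak1, and the BH3-only genes Bbc3 (PUMA), Pmaip1 (NOXA), Bcl2l11 (BIM) and Bid. The genes were chosen by symbol, and all 10 were found among the 22660 rows of the gene count table. RNA was sequenced from the plantaris, a fast calf muscle, of 20 mice. They form 4 groups of 5, since either treatment, vehicle or D + Q, was given after either surgery, sham or MOV. The labels give an age of 2 years, and the study's methods describe old male C57BL/6J mice. MOV is mechanical overload of the plantaris, brought about in both legs by cutting away part of the gastrocnemius and soleus. In sham mice the incision was made but no muscle was taken. D + Q stands for the senolytic pair of quercetin (50 mg/kg), a plant flavonoid, and dasatinib (5 mg/kg), which blocks tyrosine kinases, given to kill senescent cells, and the other mice received vehicle by the same route. Gavage was on days 7 and 10 and muscle was taken on day 14, although the description of the study as a whole gives day 14 for the second gavage of sham mice. The labels name no engineered allele, each mouse gave 1 library, and every mouse, sham mice included, underwent surgery and gavage.

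BCL2 family proteins decide whether the outer mitochondrial membrane is breached. BAX and BAK form the pores that let cytochrome c out, the survival proteins hold BAX, BAK and the BH3-only proteins in check, and the BH3-only proteins are the sensors that relieve that restraint or activate the pore formers directly. Senescent cells are known to lean on survival proteins such as BCL-XL, which is why members of the family and the kinases upstream of them are drug targets in senolytic work. BCL2 proteins are also controlled by phosphorylation, by binding partners and by rapid turnover, MCL1 above all, so that mRNA levels describe only the supply side of the family.

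The bases just before the start of transcription are shown for a survival gene whose mRNA was lower with MOV (Bcl2), a survival gene and a pore-forming gene whose mRNA was higher (Mcl1 and Bax), and the only BH3-only gene that did not pass the test (Bcl2l11), because these are the patterns the values below turn on. They are read 5′ to 3′ toward the gene from RefSeq's promoter table (assembly GRCm38.p6), each matched once in the chromosome of GRCm39, and end at the last base before the first annotated exon. Capitals mark matches to the motifs listed in the next paragraph, except the p53 decamer.
Bcl2 (chr1:106642061-106642270, minus strand): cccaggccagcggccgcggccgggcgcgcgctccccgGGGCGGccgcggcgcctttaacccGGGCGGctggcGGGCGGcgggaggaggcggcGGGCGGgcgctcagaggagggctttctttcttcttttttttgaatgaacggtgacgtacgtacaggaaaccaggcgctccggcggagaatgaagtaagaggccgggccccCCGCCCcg
Mcl1 (chr3:95565782-95566025, plus strand): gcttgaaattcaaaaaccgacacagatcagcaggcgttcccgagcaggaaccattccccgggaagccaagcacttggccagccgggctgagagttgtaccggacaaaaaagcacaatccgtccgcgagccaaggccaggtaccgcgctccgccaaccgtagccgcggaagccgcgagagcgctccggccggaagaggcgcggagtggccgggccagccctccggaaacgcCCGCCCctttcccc
Bax (chr7:45116326-45116572, minus strand): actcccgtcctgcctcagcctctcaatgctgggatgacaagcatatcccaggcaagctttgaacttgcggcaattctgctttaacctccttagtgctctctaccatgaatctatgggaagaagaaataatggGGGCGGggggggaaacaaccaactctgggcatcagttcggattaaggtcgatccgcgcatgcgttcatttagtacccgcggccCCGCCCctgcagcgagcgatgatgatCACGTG
Bcl2l11 (chr2:127967708-127967957, plus strand): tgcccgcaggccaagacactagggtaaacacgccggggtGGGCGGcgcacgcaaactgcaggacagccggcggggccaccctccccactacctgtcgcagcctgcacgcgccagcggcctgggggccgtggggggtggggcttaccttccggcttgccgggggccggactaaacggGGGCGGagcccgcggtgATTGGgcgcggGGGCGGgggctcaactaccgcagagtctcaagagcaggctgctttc

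In the 250 bases before each RefSeq start, both strands were searched for a GC box (GGGCGG, in 32.74% of 32851 mouse promoters), an E-box (CACGTG, 6.02%), a CCAAT box (CCAAT, 33.85%), an AP-1 site (TGANTCA, 6.75%), a TATA box (TATAAA, 12.37%) and the p53 decamer consensus (7.13%). Bcl2 held 7 GC boxes, 5 of them in the bases shown, Bcl2l11 held 3 with 1 CCAAT box before the start shown and 2 with 2 CCAAT boxes before its second start, Bax held 2 and Mcl1 held 1. Bax, a gene long known as a p53 target, was the only one of these 4 with an E-box or a p53 decamer, 1 of each. The decamer (RRRCWWGYYY, with R for A or G, W for A or T and Y for C or T) is a p53 half-site only. None of the 4 held an AP-1 site or a TATA box. GC boxes were therefore found before genes that were higher, lower and neither with MOV. A match describes the letters in this window and is not evidence of binding, and a missing match says nothing of the factor.

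Total counts per mouse ran from 17887532 to 26234518. Levels are given as CPM, the usual library-size-scaled counts, with edgeR's TMM factors, which were 0.829 to 0.886 in sham mice and 1.06 to 1.24 in MOV mice. Muscle fibre genes such as Ckm and Myh4 were abundant in all libraries, as the label plantaris calls for. Over 6 genes they summed to 123220 CPM or more in every vehicle sham mouse and 67841 CPM or more in every vehicle MOV mouse. In D + Q mice the lowest sums were 134740 CPM in sham and 67251 CPM in MOV. Members at a few CPM rest on few reads: 1 to 5 counts per vehicle sham mouse for Pmaip1 and 11 to 19 for Bid, against 2671 to 3392 for Mcl1. The precision of the lowest members is thus set by counting as well as by the spread between mice.

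Overload raised 7 of the 10 genes and lowered 2 in vehicle-treated mice by edgeR's quasi-likelihood test with Benjamini-Hochberg adjustment over all genes tested (adjusted p under 0.05). Pmaip1, Bbc3, Bid, Bax, Bcl2l1, Bak1 and Mcl1 were higher in MOV, and Bcl2 and Bcl2l2 were lower. Pmaip1 reached 10 counts only in MOV mice and so entered the test through the group where it was high. MOV changed much of the transcriptome, since 60.5% of 14601 genes passed the same test, 30.7% higher and 29.8% lower. The members' median log2 fold change was 0.59 against -0.015 over all genes tested. Scaled by library totals alone, all 10 genes passed and only Bcl2 was lower, with the median of all genes at 0.36. In 9 of the 10 genes the 5 vehicle MOV mice lay entirely above or entirely below the 5 vehicle sham mice, which was also so for 46.5% of all genes tested.

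Marker genes of other cell types also differed between sham and MOV mice. Summed over whole marker lists, fibroblast genes went from 339 to 510.2 CPM in vehicle sham mice to 3383 to 6197 CPM in vehicle MOV mice, with all 5 of 5 genes higher. Macrophage genes went from 27.9 to 66.4 CPM to 113 to 323 CPM, with 6 of 7 higher, and endothelial genes from 116 to 163 CPM to 195 to 216 CPM, with 4 of 5 higher. Muscle fibre genes fell from 123220 to 143490 CPM to 67841 to 93837 CPM, with 4 of 6 lower. Adipocyte genes fell from a mean of 9.18 to 3.09 CPM, with 3 of 3 lower. Satellite cell genes were higher in 3 of 4, pericyte and smooth muscle genes in 2 of 4, Schwann cell genes in 1 of 4 and red blood cell genes in 0 of 3, with none lower in these lists. Neutrophil, T cell and B cell lists summed to 6.04 CPM or less in every vehicle mouse, and Cd4 was at 0 in all vehicle sham mice. The part these cells have in the members' values was not tested, and in whole muscle fewer cells of a type and less RNA per cell cannot be told apart.

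**Figure D1:**
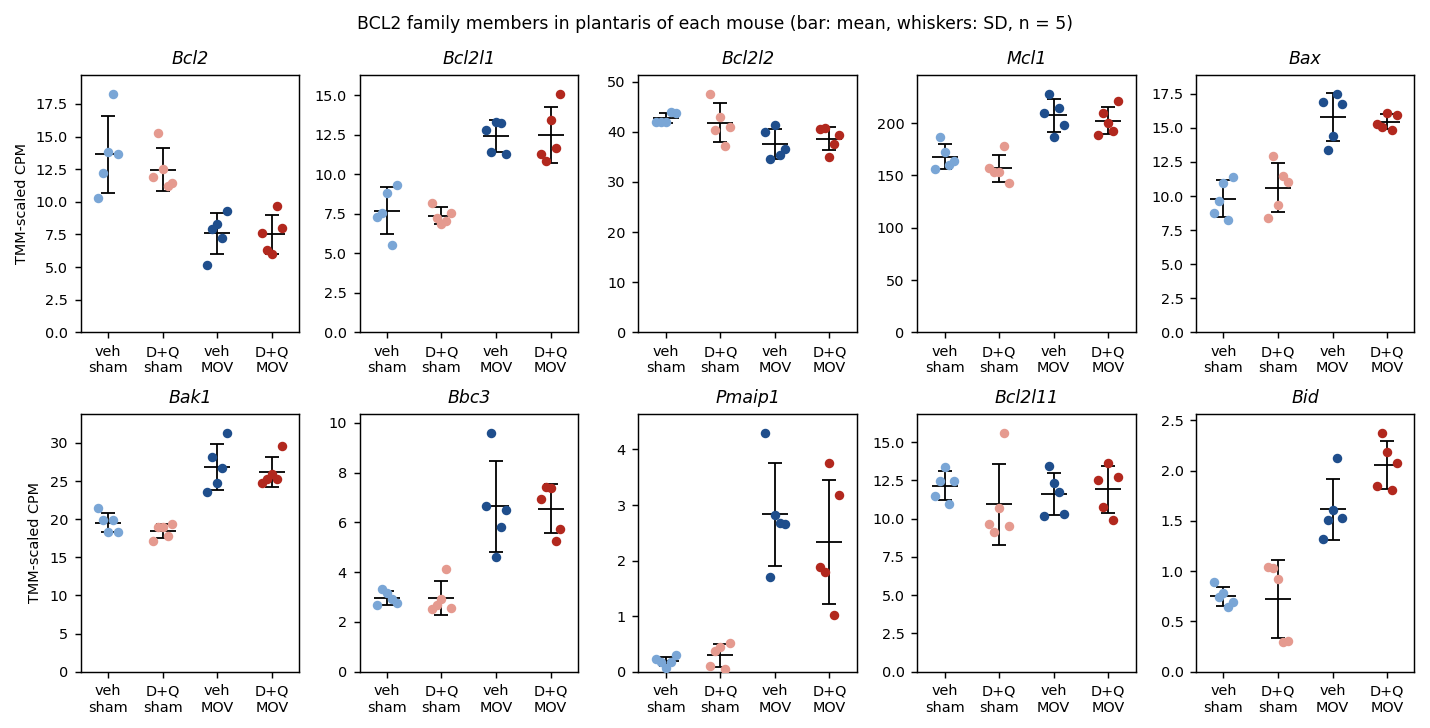
Each panel plots 1 gene in TMM-scaled CPM on a linear axis from 0, with 1 point per mouse, a bar at the mean and whiskers of 1 SD (n = 5 per group); veh is vehicle. MOV mice sit above sham mice for 7 genes and below them for Bcl2, while the vehicle and D + Q mice of the same surgery overlap in every panel.

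Bcl2, the founding survival gene of the family (chromosome 1, 106465908 to 106642060, minus strand, GRCm39), was lower with MOV in both treatments. Its level was 10.3, 12.2, 13.8, 18.3 and 13.7 CPM in vehicle sham mice 1 to 5 and 5.14, 7.94, 8.34, 7.22 and 9.29 CPM in vehicle MOV mice 1 to 5. Every MOV mouse was below every sham mouse. The log2 fold change was -0.83 ± 0.168 (SE, n = 5 per group, edgeR adjusted p = 0.000601), a fold of 0.561. D + Q mice had the same order, with 11.2 to 15.3 CPM in sham and 5.98 to 9.69 CPM in MOV. With library totals the log2 fold change was -0.46 in vehicle mice (edgeR adjusted p = 0.0334) and -0.32 in D + Q mice (adjusted p = 0.0381), and sham and MOV mice then overlapped in both treatments.

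Bcl2l1, which encodes BCL-XL (chromosome 2, 152622582 to 152673655, minus strand), went the other way. Vehicle sham mice had 7.32, 7.54, 8.83, 5.53 and 9.31 CPM and vehicle MOV mice had 12.8, 11.4, 13.3, 13.2 and 11.3 CPM. The groups did not overlap, and the log2 fold change was 0.70 ± 0.131 (SE, n = 5 per group, edgeR adjusted p = 0.000285), a 1.63-fold rise. BCL-XL and its shorter, death-promoting splice form come from this gene, and gene counts do not separate them.

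Mcl1, the short-lived survival gene that acts early in the pathway (chromosome 3, 95566026 to 95570487, plus strand), rose by less. The values were 156, 187, 172, 160.1 and 164 CPM in vehicle sham mice and 210.2, 228, 187, 215 and 198 CPM in vehicle MOV mice. The lowest MOV mouse was only just above the highest sham mouse. The log2 fold change of 0.32 ± 0.0740 (SE, n = 5 per group, edgeR adjusted p = 0.00165) corresponds to a 1.25-fold rise.

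Bcl2l2, which encodes BCL-W (chromosome 14, 55120778 to 55126551, plus strand), was the least certain call. Vehicle sham mice were tightly grouped at 42.0, 42.0, 41.9, 44.0 and 43.8 CPM, and vehicle MOV mice had 39.9, 34.6, 41.4, 35.5 and 36.7 CPM. The log2 fold change was -0.17 ± 0.0672 (SE, n = 5 per group, edgeR adjusted p = 0.0377). With counts scaled by library totals alone it was 0.21 (edgeR adjusted p = 0.0298), so its direction rests on the scaling, although it stayed below the median of all genes under both. DESeq2 gave an adjusted p of 0.0618. The call was kept without vehicle MOV mouse 3 (edgeR adjusted p = 0.0258) or vehicle sham mouse 2 (0.0473) and was lost without any 1 of the other 8 mice (0.0516 to 0.155).

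The pore-forming genes rose together. Bax (chromosome 7, 45111015 to 45116325, minus strand) had 8.79, 9.61, 10.96, 8.27 and 11.4 CPM in vehicle sham mice and 16.9, 13.4, 14.4, 17.5 and 16.8 CPM in vehicle MOV mice. All MOV mice were above all sham mice, with a log2 fold change of 0.70 ± 0.115 (SE, n = 5 per group, edgeR adjusted p = 8.99e-05), a 1.63-fold rise. Bak1 (chromosome 17, 27238784 to 27247983, minus strand), whose protein sits in the mitochondrial membrane before any death signal, had 21.4, 19.9, 18.3, 19.9 and 18.3 CPM in vehicle sham mice and 23.5, 28.1, 24.8, 26.7 and 31.3 CPM in vehicle MOV mice. Its groups did not overlap either, and the log2 fold change was 0.47 ± 0.0869 (SE, n = 5 per group, edgeR adjusted p = 0.000263).

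The widest change of all 10 genes was in Pmaip1, which encodes NOXA, a BH3-only protein that binds MCL1 (chromosome 18, 66591604 to 66598636, plus strand). Vehicle sham mice had 0.230, 0.173, 0.0645, 0.175 and 0.294 CPM and vehicle MOV mice had 4.30, 1.71, 2.83, 2.67 and 2.66 CPM. The gene was thus close to the detection limit in sham muscle, with 1 to 5 counts, and had 33 to 107 counts with MOV. The log2 fold change was 3.87 ± 0.365 (SE, n = 5 per group, edgeR adjusted p = 4.56e-07), a 14.6-fold rise with a 95% interval of 8.52 to 25.1. Pmaip1 met the filter of 10 counts in 5 mice only through the MOV mice, and it was not tested with any 1 of them left out.

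Bbc3, which encodes PUMA, a BH3-only protein that binds every survival member (chromosome 7, 16042318 to 16052130, plus strand), rose 2.25-fold. It had 2.67, 3.34, 3.16, 2.91 and 2.77 CPM in vehicle sham mice and 6.67, 9.60, 4.62, 5.82 and 6.51 CPM in vehicle MOV mice. The sham mice were close together and the MOV mice were spread, without overlap, and the log2 fold change was 1.17 ± 0.187 (SE, n = 5 per group, edgeR adjusted p = 7.02e-05).

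Bid, the BH3-only gene whose protein links death receptors to mitochondria once caspase-8 has cut it (chromosome 6, 120862525 to 120894171, minus strand), rose 2.15-fold. The values were 0.893, 0.743, 0.780, 0.641 and 0.698 CPM in vehicle sham mice and 1.32, 1.51, 1.60, 2.12 and 1.53 CPM in vehicle MOV mice. The groups did not overlap, and the log2 fold change was 1.11 ± 0.2505 (SE, n = 5 per group, edgeR adjusted p = 0.00137). In the annotation 31.2% of the exon bases of Bid also lie in exons of Bcl2l13 on the opposite strand. The library's strand is not given in the sources used here, so reads in that stretch cannot be assigned to either gene with certainty. Bcl2l13 is far more abundant, at 134 to 148 CPM in vehicle sham mice and 84.2 to 134 CPM in vehicle MOV mice. Its log2 fold change was -0.37 with TMM factors, a value that rests on the scaling, as given further below. The part of shared reads in the values of Bid was not tested. Smaller stretches are shared with other annotated genes by Bak1 (18.2% of exon bases, Ggnbp1, opposite strand), Bcl2l2 (594 of 5401 bases, Gm20521, same strand) and Bax (10.3%, Gm45808, same strand).

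Bcl2l11, which encodes BIM, a strong activator of BAX and BAK (chromosome 2, 127967958 to 128004476, plus strand), did not pass the test. It had 11.5, 12.4, 13.3, 10.95 and 12.5 CPM in vehicle sham mice and 10.2, 13.4, 12.3, 11.7 and 10.3 CPM in vehicle MOV mice. The groups overlapped throughout, with a log2 fold change of -0.053 (95% interval -0.27 to 0.17, edgeR adjusted p = 0.679). Scaled by library totals alone it was 0.32 (edgeR adjusted p = 0.0194). That scaling moved the median of all genes from -0.015 to 0.36, so relative to the median gene Bcl2l11 changed little under either. Under it, 7683 of 9136 genes called in the whole table were higher, against 4482 of 8831 with TMM.

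The same comparison between D + Q MOV and D + Q sham mice, which shares no animal with the vehicle comparison, called 8 of the 10 genes. The same 7 genes were higher and Bcl2 was lower, where 65.3% of 14913 genes passed, 34.4% higher and 30.9% lower. Their groups did not overlap in 8 of 10 genes, against 53.2% of all genes tested. Pmaip1 had 0.105, 0.365, 0.439, 0.0486 and 0.509 CPM in D + Q sham mice and 1.88, 1.80, 3.76, 1.03 and 3.19 CPM in D + Q MOV mice. The groups were apart but the MOV mice were uneven, and the log2 fold change was 3.02 ± 0.471 (SE, n = 5 per group, edgeR adjusted p = 3.39e-05). Pmaip1 again met the filter chiefly through the MOV mice, where it was high. It had 1 to 10 counts per D + Q sham mouse and 23 to 88 per D + Q MOV mouse. Bid had 1.04, 1.04, 0.927, 0.292 and 0.306 CPM in D + Q sham mice and 1.85, 2.38, 2.19, 1.81 and 2.08 CPM in D + Q MOV mice. Sham mice 4 and 5 were well below the other 3, on 6 counts each, and the log2 fold change was 1.57 ± 0.325 (SE, n = 5 per group, edgeR adjusted p = 0.000371). The other genes called had log2 fold changes of 1.19 for Bbc3, 0.80 for Bcl2l1, 0.59 for Bax, 0.55 for Bak1, 0.41 for Mcl1 and -0.68 for Bcl2 (edgeR adjusted p between 1.81e-06 and 0.000177).

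Bcl2l2 and Bcl2l11 did not pass in D + Q mice. Bcl2l2 had 47.6, 40.4, 43.0, 37.1 and 41.0 CPM in D + Q sham mice and 40.5, 40.8, 35.1, 37.6 and 39.3 CPM in D + Q MOV mice, with a log2 fold change of -0.066 (95% interval -0.21 to 0.079, edgeR adjusted p = 0.414). Scaled by library totals it was 0.30 (edgeR adjusted p = 0.000666), with the median of all genes at 0.39 and 8392 of 10046 called genes higher, against 5129 of 9743 with TMM. Bcl2l11 had 9.66, 9.14, 10.7, 15.6 and 9.53 CPM in D + Q sham mice and 12.5, 10.8, 13.6, 9.91 and 12.7 CPM in D + Q MOV mice. Sham mouse 4 stood above all 5 MOV mice, and the log2 fold change of 0.17 (edgeR adjusted p = 0.306) became 0.33 (edgeR adjusted p = 0.0139) without that mouse. Scaled by library totals it was 0.54 (edgeR adjusted p = 0.00483).

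Whether D + Q altered the overload response was asked with the interaction of treatment and surgery over all 20 mice. None of the 10 genes passed, where 0.0127% of 15700 genes did, and none had an unadjusted p under 0.05 by edgeR. The widest estimates were those of the lowest genes, a log2 difference of -0.89 for Pmaip1 (95% interval -2.29 to 0.51) and of 0.43 for Bid (-0.43 to 1.28). For Bcl2l1 the estimate was 0.067 (-0.28 to 0.42), for Bcl2 it was 0.12 (-0.34 to 0.58) and for Mcl1 it was 0.059 (-0.14 to 0.26).

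**Figure D2:**
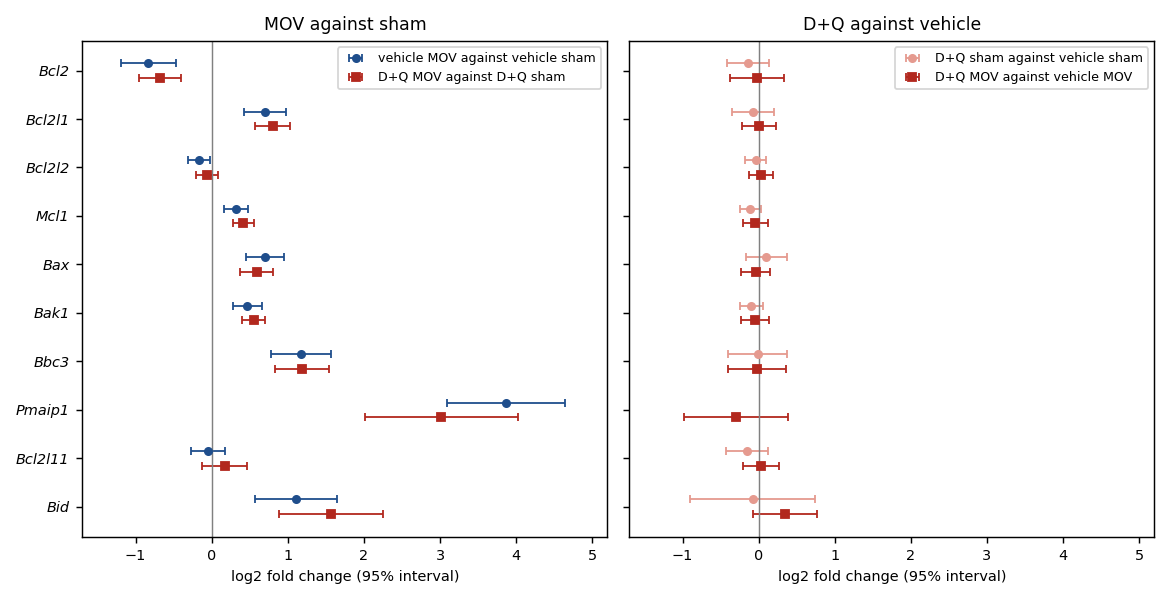
Points are log2 fold changes with 95% intervals from edgeR's quasi-likelihood test (n = 5 mice per group), MOV against sham on the left and D + Q against vehicle on the right. On the left 7 genes lie to the right of 0 and Bcl2 to the left in both treatments, while on the right all intervals span 0; Pmaip1 was not tested in sham mice.

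D + Q against vehicle within overloaded muscle asks what the drugs changed while the muscle was growing. None of the 10 genes passed the test, and none had an unadjusted p under 0.05 by edgeR. Over all genes tested, 0% of 15238 genes passed, 1340 had an unadjusted p under 0.05 and DESeq2 called 11 genes but none of the 10. Without vehicle MOV mouse 4, 2 genes passed edgeR's test and 2634 had an unadjusted p under 0.05. Bcl2l1, the survival gene most closely tied to senolytic drugs, had 11.3, 10.9, 13.4, 11.7 and 15.1 CPM in D + Q MOV mice, which straddled the 11.3 to 13.3 CPM of vehicle MOV mice. Its log2 fold change was -0.0024, with a 95% interval of -0.23 to 0.22. Bcl2 had 7.59, 6.34, 5.98, 9.69 and 7.97 CPM in D + Q MOV mice, again across the range of vehicle MOV mice, and its interval was wider, -0.38 to 0.34 around -0.021.

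The intervals bound what a change in the other genes of overloaded muscle could have been. Mcl1 had a log2 fold change of -0.044 (95% interval -0.21 to 0.12), Bcl2l2 of 0.032 (-0.12 to 0.19), Bax of -0.041 (-0.23 to 0.15) and Bak1 of -0.045 (-0.23 to 0.14). For the BH3-only genes Bbc3 (-0.40 to 0.35) and Bcl2l11 (-0.21 to 0.27) the intervals also lay on both sides of 0. Pmaip1 (-0.30, 95% interval -0.99 to 0.39) had the widest interval, which reached down to a fold of 0.505. Bid came closest to a difference, with 1.81 to 2.38 CPM in D + Q MOV mice against 1.32 to 2.12 CPM in vehicle MOV mice. Its log2 fold change was 0.35 (95% interval -0.071 to 0.77, edgeR adjusted p = 0.614). A two-sided exact permutation test of mean log2 CPM gave p = 0.0397 for Bid, the lowest of the 20 such tests of D + Q against vehicle and not corrected for their number, where 0.00794 is the smallest p that 5 mice against 5 allow. Fibroblast marker genes summed to 5473 to 7964 CPM in D + Q MOV mice and 3383 to 6197 CPM in vehicle MOV mice, macrophage genes to 243 to 295 and 113 to 323 CPM, with none of either list past edgeR's adjusted threshold. Of the 5 fibroblast genes, 4 had an unadjusted p under 0.05 in MOV mice, 4 in sham mice and 5 over both surgeries, against 1 of 7 macrophage genes in MOV mice. Over all genes tested the shares were 8.79% in MOV mice, 10.2% in sham mice and 13.7% over both surgeries. The part of fibroblasts and macrophages in the members' values was not tested.

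In sham muscle D + Q changed none of the 9 genes that could be tested, where 0.215% of 13926 genes passed. Log2 fold changes ran from -0.16 for Bcl2l11 to 0.10 for Bax, and none had an unadjusted p under 0.05 by edgeR. Pmaip1 had 1 to 10 counts per D + Q sham mouse and 1 to 5 per vehicle sham mouse, too few to enter the test. Over both surgeries together, 10 D + Q mice against 10 vehicle mice, none of the 10 genes passed or had an unadjusted p under 0.05, where 0.146% of 15700 genes passed. The narrowest interval, that of Bcl2l2, ran from -0.093 to 0.10, and the widest, that of Pmaip1, from -0.53 to 0.84. In sham muscle alone the widest was that of Bid, from -0.90 to 0.74. In no gene were the 5 D + Q mice all above or all below the 5 vehicle mice of the same surgery, against 1.51% of genes in MOV mice and 2.13% in sham mice. A p above the threshold does not show that the levels were equal, and the intervals give the changes that remain possible.

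Per kilobase of annotated exon, Mcl1 was by far the most abundant of the 10 genes, at 48.1 CPM per kb in vehicle sham mice and 59.5 in vehicle MOV mice (means of 5). Bak1 (8.13) and Bcl2l2 (7.91) followed in vehicle sham mice with overlapping ranges, then Bax (5.29). Bcl2l1 (1.501), Bcl2 (1.48) and Bcl2l11 (1.20) formed an overlapping trio. Bbc3 (0.620) stood apart below them, and Bid (0.0767) and Pmaip1 (0.0686) were lowest and overlapped. With MOV, Bax (8.51 in vehicle and 8.32 in D + Q mice) came before Bcl2l2 (6.96 and 7.16), with overlapping ranges in vehicle mice only. In vehicle MOV mice Bcl2l1 (2.42) overlapped no neighbour and Bcl2 (0.824) was above only Bid (0.165). Bbc3 (1.39), Bcl2l11 (1.15), Pmaip1 (1.04) and Bcl2 formed a chain in which each overlapped the next. The order is tied to the length used, since with the canonical transcript Bax was second in vehicle sham mice (10.1 CPM per kb) and Bid was 0.341, while Mcl1 stayed first.

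**Figure D3:**
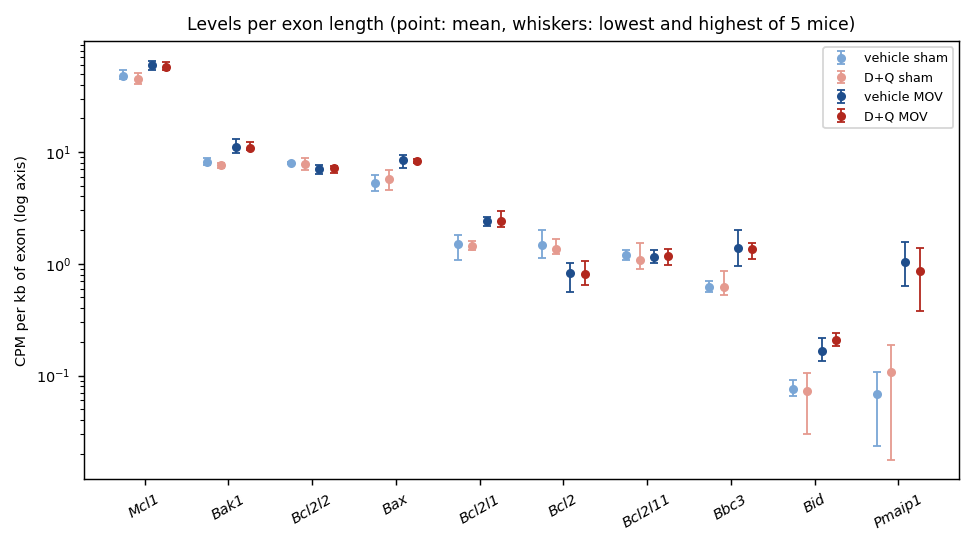
Mean TMM-scaled CPM per kb of exon on a log axis for each gene and group, with whiskers from the lowest to the highest of 5 mice and genes ordered by their vehicle sham level. Mcl1 is above all others in every group, and the gap between sham and MOV is widest for Pmaip1.

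Mcl1 made up most of the survival side. Of the 4 survival genes' summed level per kb, Mcl1 took 81.5% ± 1.27 (SD, n = 5) in vehicle sham mice and 85.3% ± 1.69 in vehicle MOV mice. Bcl2l2 took 13.5% ± 0.915 and 10.0% ± 1.27, Bcl2l1 took 2.54% ± 0.474 and 3.48% ± 0.387, and Bcl2 took 2.52% ± 0.584 and 1.19% ± 0.282. With these exon lengths Bcl2l1 and Bcl2 thus had like shares in sham muscle and unlike ones after MOV. The likeness is tied to the length used. Per kb of canonical transcript the vehicle sham means were 2.36 CPM for Bcl2l1 and 1.88 CPM for Bcl2. D + Q mice had 81.0% and 84.8% for Mcl1 and 2.45% and 1.20% for Bcl2 in sham and MOV. These shares are descriptions of genes already tested above and are no further evidence.

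The ratio of Bax to Bcl2, a common summary of the balance between pore-forming and survival genes, does not depend on how libraries are scaled. It was 4.23, 3.91, 3.94, 2.24 and 4.15 in vehicle sham mice and 16.3, 8.37, 8.58, 12.0 and 8.96 in vehicle MOV mice, as counts per kb of exon. Every MOV mouse was above every sham mouse, with means of 3.70 ± 0.823 and 10.8 ± 3.39 (SD, n = 5). In D + Q mice the means were 4.25 ± 0.676 in sham and 10.5 ± 2.17 in MOV. The ratio of Bcl2l1 to Bcl2 rose too, from 1.06 ± 0.296 to 3.08 ± 0.878 in vehicle mice, and Mcl1 to Bcl2 from 33.6 ± 7.08 to 75.5 ± 20.6. In both the denominator, Bcl2, was lower and the numerator was higher, and no test was made of a ratio.

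**Figure D4:**
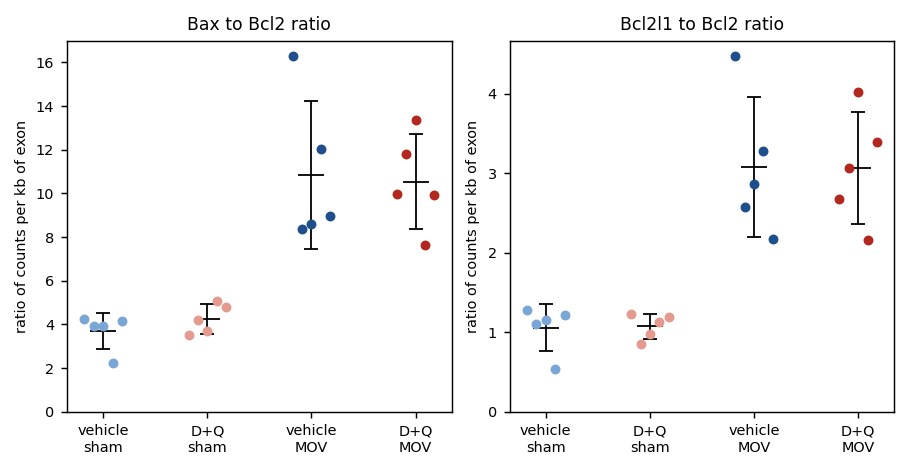
Ratios of counts per kb of exon, Bax to Bcl2 on the left and Bcl2l1 to Bcl2 on the right, with 1 point per mouse, a bar at the mean and whiskers of 1 SD (n = 5). In both panels the MOV mice of either treatment lie above the sham mice, and D + Q and vehicle mice overlap.

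Genes of 8 further lists from the cell death pathway were counted in the same fits, beside the 30.7% of all genes called higher and 29.8% called lower in vehicle mice and the 34.4% and 30.9% in D + Q mice. Of 10 apoptosome and caspase genes, 6 were higher and 1 was lower in vehicle mice (median log2 fold change 0.62), among them Apaf1, the scaffold on which cytochrome c assembles the apoptosome (1.80, edgeR adjusted p = 4.33e-06), while Parp1, a caspase substrate and DNA repair enzyme, was lower (-0.62, adjusted p = 5.36e-07). In the death receptor arm 5 of 8 tested genes were higher and none was lower, with Tradd at 1.41 and Ripk1 at 1.32, both adaptors of the TNF receptor. The number called in either direction was near the 60.5% of all genes. D + Q mice had 7 higher and 2 lower of 10 caspase genes and 7 higher of 8 death receptor genes.

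Of 10 mitochondrial genes for channels and released proteins, 8 were lower and none higher in vehicle mice (median log2 fold change -0.62), where 29.8% of all genes were lower. They included Vdac3, an outer membrane channel (-0.81, edgeR adjusted p = 6.62e-08), and Endog, a mitochondrial nuclease (-0.75, adjusted p = 3.66e-06). D + Q mice had 8 lower and 1 higher. Scaled by library totals, 6 were lower and 2 higher in either treatment. Muscle fibre marker genes also summed lower with MOV, as given above, and their part in these values was not tested.

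Of the other BCL2 family genes, 10 of 15 listed could be tested, and 4 were higher and 2 lower in vehicle mice, a number called near the 60.5% of all genes. Bok, a pore-forming relative of BAX, went from a mean of 0.904 to 6.59 CPM (log2 fold change 2.86, edgeR adjusted p = 1.26e-07). Bcl2a1b, a survival gene of blood cells, went from 0.0236 to 2.24 CPM, and its reads may be split with near-identical copies. It was at most 0.118 CPM in vehicle sham mice and entered the test through the MOV mice, where it was high. The mitophagy receptors Bcl2l13 (-0.37, adjusted p = 0.00374) and Bnip3l (-0.34, adjusted p = 0.00033) were lower, but were -0.0020 and 0.043 with library totals, under which no gene of the list was lower. D + Q mice had 4 higher and 4 lower with TMM, and 4 and none with library totals.

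Of 6 inhibitor of apoptosis genes, 2 were higher and 2 lower in vehicle mice, near the 60.5% called over all genes, and 3 and 2 in D + Q mice, where 65.3% were called, with Naip2 at 1.91 (edgeR adjusted p = 7.83e-05), whereas library totals gave 4 higher and none lower in vehicle mice. Naip2 had 0.345 to 0.460 CPM in vehicle sham mice and 0.986 to 2.28 CPM in vehicle MOV mice. It entered the test chiefly through the MOV mice, where it was high, as did Birc5 (means of 0.118 and 2.40 CPM). Of 8 regulators of BH3-only genes, 3 were higher in vehicle mice, among them Trp53 (0.38, edgeR adjusted p = 0.00249) and E2f1 (1.99, edgeR adjusted p = 0.000571). Trp53 encodes p53, a known activator of Bbc3, Pmaip1 and Bax, whose part in these values was not tested. D + Q mice had 2 of the regulators higher and 4 lower. With library totals this list had 7 higher in vehicle mice and 4 higher in D + Q mice, and none lower in either. Of 6 MCL1 turnover genes, 4 were lower in vehicle mice and 5 in D + Q mice, such as the ubiquitin ligase Huwe1 (-0.47, adjusted p = 0.000203), but with library totals none of the 6 was lower in vehicle mice and 1 in D + Q mice. Of the 5 genes named as D + Q targets, 3 were tested in vehicle mice, and 2 were higher and 1 lower. Cdkn1a, the cell cycle inhibitor p21 (1.73, edgeR adjusted p = 5.01e-08), and the ephrin gene Efnb1 (0.51, adjusted p = 0.00345) rose, and the PI3 kinase gene Pik3cd fell from a mean of 27.5 to 15.2 CPM (-0.84, adjusted p = 0.000939), a call lost with library totals (-0.45, adjusted p = 0.0670). In D + Q against vehicle, within either surgery or over both, and in the interaction, 0 genes of these 8 lists passed edgeR's test. In sham mice DESeq2 called 1 mitochondrial gene lower and 1 regulator higher. By edgeR, 4 of 10 mitochondrial genes there had an unadjusted p under 0.05, against 10.2% of 13926 genes. Over both surgeries it was 5 of 10, against 13.7% of 15700 genes.

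**Figure D5:**
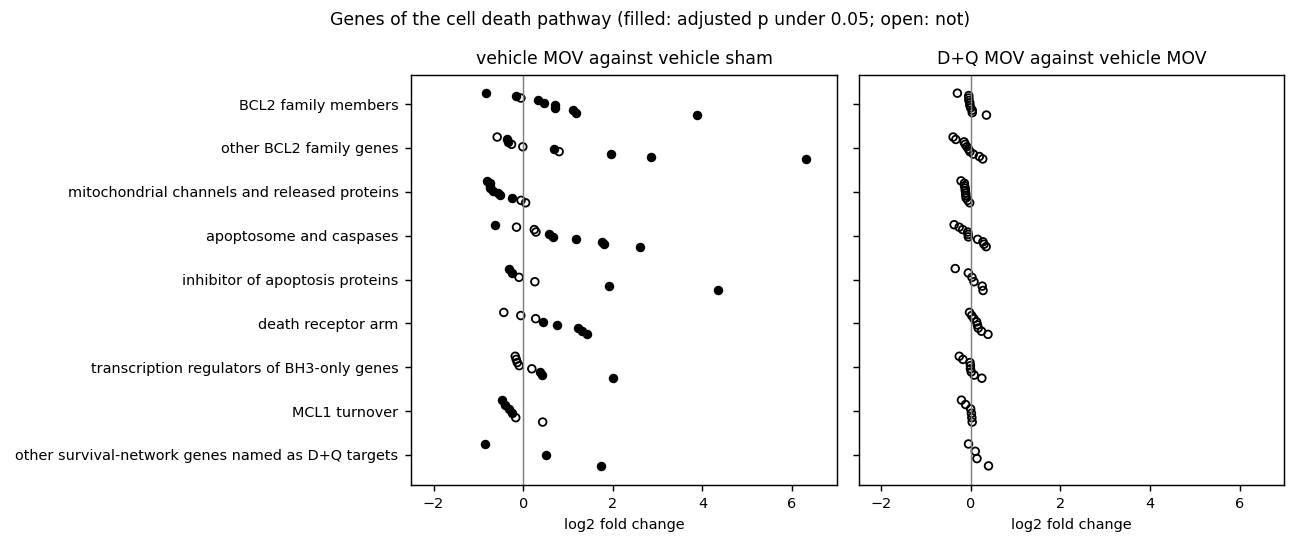
Each point is the log2 fold change of 1 tested gene in its list, filled where edgeR's adjusted p was under 0.05 (n = 5 mice per group), for vehicle MOV against vehicle sham on the left and D + Q MOV against vehicle MOV on the right. Filled points lie on both sides of 0 on the left, all to its left for mitochondrial genes, and there is none on the right; the point farthest to the right is Bcl2a1b, which was near 0 CPM in sham mice.

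The genes whose levels followed the BH3-only genes most closely were found by the root mean square difference of centred log2 CPM over the 20 mice among 15699 other genes. For Pmaip1 they were Ccnb1, Megf10 and Cdk5r1 (0.290, 0.298 and 0.304, against a median gene at 1.11). For Bbc3 they were Plp2, 1810058I24Rik and Gpr20 (0.189, 0.221 and 0.222, median 0.628). For Bid they were Fbxl19, Calu and Rap1gap2 (0.206, 0.232 and 0.232, median 0.618). The mice share the difference between sham and MOV, so these are descriptions of likeness in level.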

How the data were processed

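Per the labels and methods, the authors aligned reads with STAR 2.7.8a to GRCm39 and estimated gene counts by expectation maximization in Partek Flow. They deposited these estimated counts without normalization, 1 column per mouse. Of all values, 29.8% were not whole, and counts were rounded. Each row sums to at least 10, and the library's strand is not given in the sources used here. Tests covered genes reaching 10 counts in 5 or more mice of a fit and were run with edgeR 4.0.16 (R 4.3.3) by robust quasi-likelihood with TMM factors and Benjamini-Hochberg adjustment over all genes tested, at 0.05. The 4 pairwise comparisons used their own 10 mice, and the interaction and the comparison over both surgeries used all 20. MOV and D + Q comparisons share groups, so they are not independent. Levels per kb used the union of exons in GENCODE vM39, and log2 levels used a pseudocount of 0.5. Alternatives were DESeq2 1.42.0, limma 3.58.1 (voom with quality weights), other scalings, filters and lengths, a replicate block, each mouse left out, and exact permutation tests (scipy 1.17.1). The canonical transcript length was chosen after seeing the data. The fits were tested on simulated data. The 10 genes and the lists were chosen with earlier results of these data known. Genes outside the 10 were named from fixed lists where they passed the test, and the nearest in level were named for the 3 genes with the widest range of group means. Total counts of 17887532 to 26234518 per mouse limit precision for low genes such as Pmaip1 and Bid.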

Additional observations from a re-analysis of the deposited data

Results flagged for a closer look

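Of 40 groups of 5 values, 3 held a mouse that stood apart by Dixon's test at the 95% level, where chance gives about 1 in 20. Bak1 was 29.6 CPM in D + Q MOV mouse 5, against 24.8 to 25.9 in the other 4 mice. Bbc3 was 4.13 CPM in D + Q sham mouse 4, against 2.52 to 2.93 in the others. Bcl2l11 was 15.6 CPM in the same mouse, against 9.14 to 10.7 in the others.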

How the results depend on the processing

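The number of the 10 genes called stayed within 1.5 times its value under every alternative run, in each of the 6 comparisons. Which genes were called and their direction did change. With the filter raised to 50 counts in 5 mice, Pmaip1 and Bid could not be tested in MOV against sham in either treatment. Their calls there therefore dropped out. With library totals all 10 genes were called in MOV against sham in either treatment, and only Bcl2 was lower. The vehicle MOV call of Bcl2l2 was lost with DESeq2 (-0.16), RLE factors (-0.16), both filters (-0.18 and -0.13), voom (-0.14) and the replicate block (-0.17, adjusted p = 0.0623), and leaving out each mouse gave -0.19 to -0.12. With library totals only, signs turned in MOV against sham for Bcl2l2 (0.21 vehicle, 0.30 D + Q) and Bcl2l11 (0.32 vehicle), in D + Q MOV against vehicle MOV for Bcl2 (0.033), Bcl2l1 (0.052), Mcl1 (0.012), Bax (0.012), Bak1 (0.014) and Bbc3 (0.044), in D + Q sham against vehicle sham for Bbc3 (0.025), in the interaction for Bbc3 (0.018), and over both surgeries for Bcl2l1 (0.0067) and Bbc3 (0.035). Other turned signs, all uncalled, were in D + Q MOV against vehicle MOV Bcl2l1 with the 50-count filter (0.0014) and all 20 mice in a fit (0.0049), Bbc3 by mean log2 CPM (0.0059), and with voom Bcl2 (0.065), Bcl2l2 (-0.00038) and Bbc3 (0.058). With voom they were Bbc3 in the interaction (0.12) and, over both surgeries, Bcl2l2 (-0.012), Bbc3 (0.011) and Pmaip1 (-0.019), and with all 20 mice Bbc3 in sham (0.0025). The cause was not tested.

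With each mouse left out, D + Q MOV against vehicle MOV ran from -0.090 to 0.022 for Bak1, -0.13 to 0.14 for Bbc3, -0.14 to 0.070 for Bcl2, -0.076 to 0.043 for Bcl2l1 and -0.021 to 0.093 for Bcl2l11. The interaction ran from -0.0011 to 0.11 for Bak1, -0.12 to 0.13 for Bbc3, -0.011 to 0.21 for Bcl2 and -0.0097 to 0.16 for Bcl2l1. Over both surgeries it was -0.083 to 0.070 for Bbc3, -0.077 to 0.0096 for Bcl2l1 and -0.021 to 0.025 for Bcl2l2. In sham it was -0.16 to 0.043 for Bbc3, -0.17 to 0.0041 for Bcl2l1, -0.098 to 0.0017 for Bcl2l2 and -0.27 to 0.13 for Bid, and in vehicle MOV against sham -0.088 to 0.0084 for Bcl2l11.

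Same-numbered mice had deviations correlated from -0.335 to 0.341 over 30 pairs, 6 of them over 0.1. Of 20 mice, 6 matched their own number best. The numbers are those of the sample titles, and this check cannot show whether same-numbered mice were paired or shared a batch. The headers of the count columns number the mice otherwise. Sham and MOV mice with the same title number have different header numbers. The replicate block gave Bbc3 0.0023 over both surgeries. Over all genes, D + Q sham calls went from 30 to 133 with DESeq2, 49 with library totals, 67 with the 1-count filter and 19 with the block or all 20 mice, and to 2 without D + Q sham mouse 3 or 5 and 74 without vehicle sham mouse 5. Calls over both surgeries went from 23 to 318 with DESeq2, 133 with voom, 8 with library totals, 36 with the 1-count filter and 37 with the block, and to 5 without D + Q sham mouse 5 and 452 without vehicle MOV mouse 4. Interaction calls went from 2 to 1 with the block, and D + Q MOV calls from 0 to 11 with DESeq2, 2 with the block and 2 without vehicle MOV mouse 4.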
